A study of Mus musculus with 6 samples.

Results

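The genes described here are the cytosolic ribosomal protein genes of mouse skin, the genes for the protein components of the ribosome that translates mRNA in the cytoplasm. They were chosen by name: a symbol that begins with Rpl (large subunit), Rps (small subunit) or Rplp (the stalk of the large subunit), followed by a number and at most one of the letters a, x or l. The deposited table lists 79 such genes among 21959, of which 46 belong to the large subunit, 30 to the small subunit and 3 to the stalk. All 79 carry the annotation structural constituent of ribosome in the table, and 0 carry an annotation to the mitochondrial ribosome. Kinases of the Rps6k type and pseudogenes are not among them.

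Bulk RNA-seq was run on full-thickness dorsal skin from C57BL/6 mice, males aged 7 weeks whose backs were shaved while the hair follicles were resting (telogen). The vehicle group (n = 3 mice) received vehicle, 30% dipropylene glycol in 70% water. The rebamipide group (n = 3 mice) received 3% rebamipide, a drug used for gastric ulcer, and both were put on the skin daily for 7 days. Libraries were made from poly-A RNA of whole tissue, so that a lower level can come from fewer cells of a type or from less RNA per cell, and these cannot be told apart.

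Each cytosolic ribosome carries one copy of nearly every ribosomal protein, and the cell makes these proteins in matched amounts. Their mRNAs are among the most abundant in most cells and begin with a run of pyrimidines, the 5′ terminal oligopyrimidine (TOP) motif, through which the mTOR kinase controls their translation. A few genes have a paralogue that is used in one tissue, such as Rpl3l of striated muscle and Rpl10l and Rpl39l of the testis, and mitochondria have a separate ribosome built from other proteins.

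The sequence around the transcription start is shown for 7 members. Some features there, which the choice by name did not use, were more frequent in members than in all promoters. Rpl5, Rpl12, Rpl4 and Rps12 are among the members with the lowest fold changes, Rps6 encodes the substrate of the S6 kinases, and Rplp2 and Rps2 are among those with the highest. Each line runs from 50 bases before the start to 30 bases from it, on the gene's strand, from RefSeq on GRCm38.p6. Capitals mark the letters TCTTT where they lie within 20 bases on either side of the start.
Rpl5 (chr5:107900478-107900557, plus strand): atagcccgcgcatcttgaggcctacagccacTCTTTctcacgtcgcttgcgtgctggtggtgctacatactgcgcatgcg
Rpl12 (chr2:32961662-32961741, plus strand): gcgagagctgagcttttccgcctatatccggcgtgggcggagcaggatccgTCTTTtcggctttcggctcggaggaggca
Rpl4 (chr9:64173337-64173416, plus strand): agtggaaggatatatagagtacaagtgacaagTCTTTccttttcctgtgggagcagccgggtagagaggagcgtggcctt
Rps12 (chr10:23787180-23787259, minus strand): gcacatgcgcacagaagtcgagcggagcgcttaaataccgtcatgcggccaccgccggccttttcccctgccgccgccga
Rps6 (chr4:86857338-86857417, minus strand): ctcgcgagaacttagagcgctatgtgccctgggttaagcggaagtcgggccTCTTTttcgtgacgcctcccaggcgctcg
Rplp2 (chr7:141447601-141447680, plus strand): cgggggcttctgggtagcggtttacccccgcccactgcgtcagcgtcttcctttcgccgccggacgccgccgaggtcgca
Rps2 (chr17:24720013-24720092, plus strand): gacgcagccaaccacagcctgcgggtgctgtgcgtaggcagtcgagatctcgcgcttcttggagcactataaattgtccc

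RefSeq promoters could be matched by symbol for 59 of the 79 members, with 71 start sites. TCTTT lay within 20 bases of the start on the gene's strand in 18.3% of these 71 windows, against 4.84% of all 32851 promoters in the table. On the other strand of the same windows it lay in 0 of the 71, against 4.52% of all promoters. A run of at least 8 pyrimidines in these 40 bases was present in 42.3% of the members' windows and in 16.05% of all promoters. The promoters of the mitochondrial ribosomal protein genes, 75 in all, held TCTTT near the start in 0 cases and a pyrimidine run in 17.3%. Over the whole 300 bases and on both strands, CCGGAA, the core letters of an ETS-type site, was found in 46.5% of the members' promoters, 57.3% of the mitochondrial ones and 14.9% of all. AAGATGG, the core of a YY1-type site, was found in 15.5%, 17.3% and 6.34%. TATAAA on the gene's strand in the 50 bases before the start was found in 0 of the 71 and in 2.63% of all promoters. Each match is a string of letters and not a measured binding site, and among the printed windows those of Rps12, Rplp2 and Rps2 hold no TCTTT at this place. The windows of Rpl13a, also among the lowest fold changes, and of Rpl24 and Rps10, also among the highest, are not printed and hold none either. Whether TCTTT goes with the fold change was not tested.

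The libraries held 38676018 to 39915276 counts in the vehicle group and 32709801 to 34706852 in the rebamipide group. Their composition differed. The mitochondrial genome accounted for 2.59% to 5.36% of each vehicle library and 13.3% to 22.0% of each rebamipide library. Levels are given as CPM, counts relative to library size after edgeR's TMM normalization. The summed CPM of 8 keratinocyte markers were 5087, 8432 and 7919 in the vehicle libraries and 2272, 1290 and 3.70 in the rebamipide libraries. In the third rebamipide library the keratinocyte markers Krt14, Krt15 and Dsp were at 0 counts, which goes against its label of skin, and the main results are therefore also given without it or for each library. The 8 adipocyte markers summed to 1651 to 3788 CPM in vehicle and 11566 to 24954 in rebamipide libraries, and the 8 brown adipocyte markers to 214 to 384 and 5040 to 12960, with Ucp1 at 0 in all 3 vehicle libraries. Elovl3 of the brown adipocyte list held most of the vehicle sum, at 129 to 238 CPM, and had 33.3 to 83.1 CPM in rebamipide. Endothelial markers summed to 203 to 471 CPM in vehicle and 969 to 1409 in rebamipide, and slow muscle markers to 257 to 394 and 464 to 746. Most of the slow muscle sum was Atp2a2, a calcium pump of many tissues, and the sums of the other 6 genes overlapped. Of the 7 slow muscle genes 4 were nevertheless called higher by edgeR, against 14.1% of all genes tested. In 5, Atp2a2 among them, every rebamipide library lay above every vehicle library, against 24.5% of all genes tested. Myh7, the slow myosin heavy chain, had 0.0401 to 0.122 CPM in vehicle and 69.8, 36.9 and 1.41 in rebamipide (log2 fold change 8.72 ± 1.60 SE, edgeR's adjusted p = 0.0181), and Myl2, Myl3 and Tnnc1 were the other called genes. Lists of fast muscle, fibroblast and leukocyte genes overlapped between the groups. The 8 markers of growing hair follicles summed to 15949, 7351 and 170 CPM in vehicle and 851, 0.624 and 0.153 in rebamipide, so that the first and the second vehicle libraries held high levels of them although the mice are labelled as in telogen. The part of these differences in cell content in the results that follow was not tested.

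Cytosolic ribosomal protein transcripts took a smaller share of the counts in rebamipide-treated skin. The 79 genes together held 4.98%, 4.28% and 4.05% of all counts in the vehicle libraries and 2.32%, 1.40% and 1.27% in the rebamipide libraries. Every rebamipide library lay below every vehicle library, with means of 4.44% ± 0.486 and 1.66% ± 0.569 (SD, n = 3 each), so that the share in rebamipide was 0.375 of that in vehicle. Without the third rebamipide library the rebamipide mean was 1.86%. When the transcripts of the mitochondrial genome were left out of the totals, the shares were 5.11%, 4.47% and 4.28% in vehicle and 2.67%, 1.74% and 1.63% in rebamipide. The groups remained apart on this basis, at 4.62% ± 0.438 and 2.01% ± 0.572 (SD, n = 3 each).

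**Figure D1:**
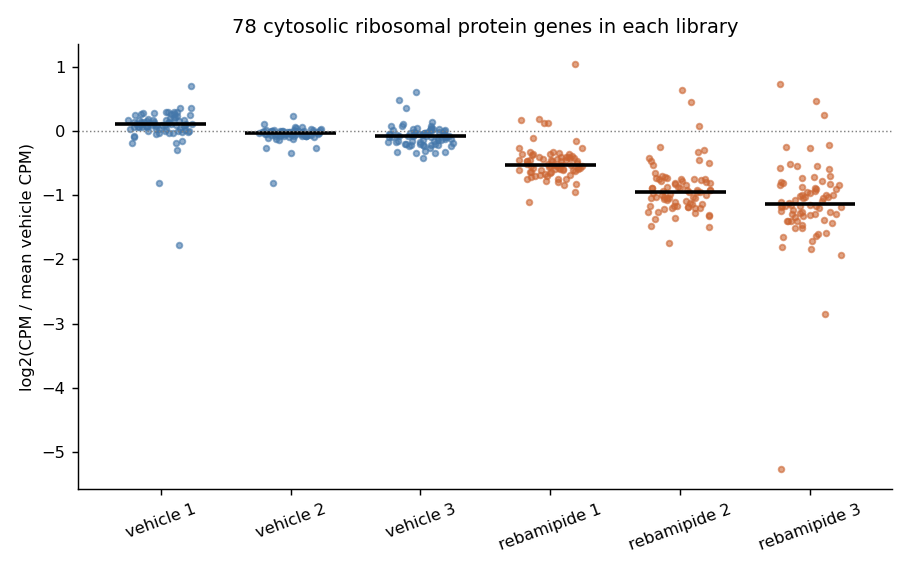
Normalized CPM of each tested member in each library, as log2 of its ratio to the mean of the 3 vehicle libraries (vertical axis); every point is a gene, each library has its own column and the black bars are medians. The medians are 0.11, -0.03 and -0.08 in the vehicle libraries and -0.52, -0.94 and -1.13 in the rebamipide libraries, so the first rebamipide library lies nearest to vehicle.

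Of the 79 members, 78 passed edgeR's filter on low counts, which looks at all libraries together. The one that did not is Rpl10l, which had 0 counts in every library, where the limit of 3 counts corresponds to 0.0600 to 0.117 CPM and covers counting error only. The quasi-likelihood test of edgeR, fitted on 14875 genes with Benjamini-Hochberg adjustment, called 28 members lower and 0 higher at an adjusted p under 0.05. Over all genes tested the same test called 6.51% lower and 14.1% higher. An unadjusted p under 0.05 was found for 64 of the 78 members and for 39.7% of all genes tested. The median log2 fold change of the members was -0.84, which is 56.0% of the vehicle level, against -0.17 over all genes tested. The middle 50% of members lay between -0.98 and -0.65, and 75 of the 78 values were negative.

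In 70 of the 78 members every rebamipide library lay below every vehicle library, an arrangement found in 24% of all genes tested, and 42 of these 70 did not pass the adjusted threshold. In 1 member, Rps27l, every rebamipide library lay above every vehicle library, against 24.5% of all genes tested. The first rebamipide library held the highest of the 3 rebamipide values for 74 members and the third held the lowest for 69. Within vehicle, the first library was the highest for 60 members and the third the lowest for 48. Members thus differed between libraries of one group as well as between groups, and in the same order for most of them.

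The number of calls depended on single libraries. With edgeR, 3 members were called lower without the first vehicle library, 0 without the second, 2 without the third, 60 without the first rebamipide library, 0 without the second and 0 without the third. The genes called lower in the whole table by the same fits numbered 379, 0, 833, 1971, 0 and 382. Those are 2.52%, 0%, 5.51%, 12.8%, 0% and 2.49% of all genes. Without the first vehicle library the members' share was near that of all genes. It was below that share without the third vehicle or the third rebamipide library. Without the second vehicle or the second rebamipide library edgeR lost its lower calls over all genes and not among the members alone. In the 3 fits with 0 calls, 47, 24 and 28 of the 78 members had an unadjusted p under 0.05, against 27.5%, 26.5% and 30.4% of all genes, so that the counts without the second and the third rebamipide library are near the share of all genes. The smallest adjusted p of a member in these fits was 0.0917, 0.102 and 0.0648 (edgeR). DESeq2 called 62 members lower with all libraries, among them all 28 called by edgeR, where 16% of the genes to which it gave an adjusted p were lower. Without the second vehicle library, the second rebamipide library and the third rebamipide library DESeq2 called 65, 22 and 17, against 13%, 9.28% and 11.9% of all genes with an adjusted p. The median log2 fold change in edgeR's 6 fits with a library left out ran from -1.04 to -0.70, the latter without the third rebamipide library.

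The scaling of the libraries set the size of the fold changes. The TMM factors were 1.21 to 1.28 in vehicle and 0.746 to 0.929 in rebamipide. With total counts alone, the median over all genes moved from -0.17 to -0.78 and the members' median from -0.84 to -1.42, and 71 members were lower, against 25.2% of all genes. The members' median was thus 0.66 below that of all genes with TMM and 0.65 below it with total counts.

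**Figure D2:**
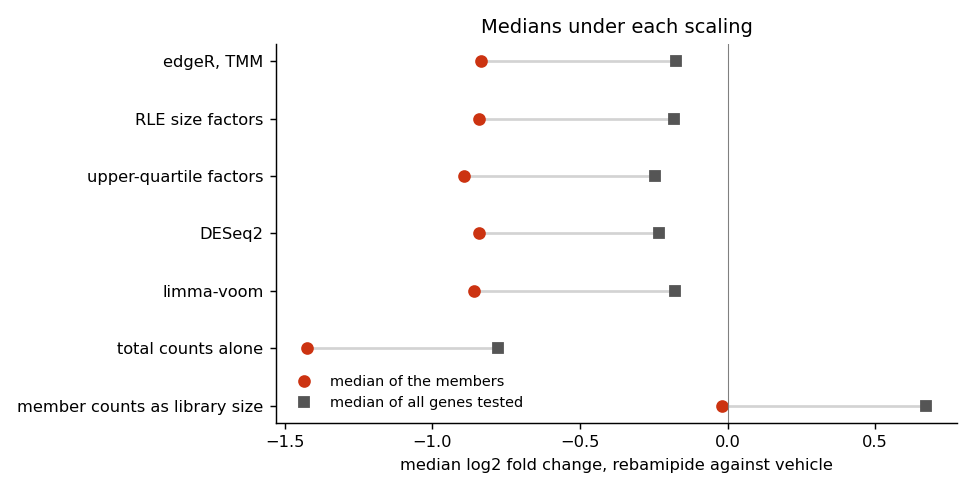
Median log2 fold change of the tested members and of all genes tested (horizontal axis) under each scaling or tool, with all 6 libraries. In each row plotted the members' median lies below that of all genes tested, by 0.66 with TMM and 0.65 with total counts alone.

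Large subunit proteins form the body that holds the peptidyl transferase centre and the exit tunnel. Of 45 tested large subunit genes 16 were lower and 0 were higher, against 6.51% and 14.1% of all genes tested. Their median log2 fold change was -0.82. Rpl5 (ENSMUSG00000058558, chromosome 5, 108048368 to 108056871 on GRCm39, plus strand), which travels with the 5S rRNA and Rpl11 and also binds Mdm2, had the lowest fold change of all members. It stood at 719, 652 and 573 CPM in vehicle and 302, 252 and 199 CPM in rebamipide. The groups were wide apart, and the log2 fold change was -1.37 ± 0.25 (SE; edgeR's adjusted p = 0.0184). Rpl5 overlaps Dipk1a on the other strand, and the strand setting of the counting is not given in the sources used here.

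Rpl4 (ENSMUSG00000032399, chromosome 9, 64080657 to 64085948), which lines the exit tunnel, had 1424, 1134 and 931 CPM in vehicle and 602, 464 and 370 in rebamipide. Its log2 fold change was -1.28 ± 0.31 (SE; edgeR's adjusted p = 0.0354). Rpl12, a protein at the base of the stalk, had 599, 508 and 519 CPM in vehicle and 314, 193 and 143 in rebamipide, a log2 fold change of -1.32 ± 0.34 (SE; edgeR's adjusted p = 0.0409). In both genes the first rebamipide library was the highest of its group and still lay well below the lowest vehicle library. Rpl13a, known for its role in silencing inflammatory mRNAs, was listed at only 12.3 to 21.1 CPM in vehicle and 4.62 to 9.29 in rebamipide, and its fold change of -1.28 did not pass (adjusted p = 0.0535, edgeR). Its mean FPKM was 6.19, against a median of 192 over the members, and how reads that match several gene copies were counted is not given in the sources used here.

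At the other end of the large subunit, Rpl36 had 152, 147 and 145 CPM in vehicle and 138, 124 and 125 in rebamipide. Its groups did not overlap, but the difference was small, with a log2 fold change of -0.20 ± 0.16 (SE; edgeR's adjusted p = 0.386). Rpl24 had the highest fold change, 0.52 ± 0.40 (SE; edgeR's adjusted p = 0.36), but was listed with only 45, 31 and 34 counts in vehicle and 25, 30 and 33 in rebamipide. At this depth the direction cannot be read, and with total counts alone its log2 fold change was -0.12. Rpl41, the shortest of the ribosomal proteins, had 909, 804 and 866 CPM in vehicle and 653, 453 and 418 in rebamipide. Its groups lay apart at a log2 fold change of -0.76 ± 0.27 (SE; edgeR's adjusted p = 0.0873).

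Small subunit proteins surround the decoding centre and the path of the mRNA. Of 30 tested small subunit genes 12 were lower and 0 were higher, against 6.51% and 14.1% of all genes tested. Their median log2 fold change was -0.90. Rps12 (ENSMUSG00000061983, chromosome 10, 23661081 to 23663173) had 242, 252 and 271 CPM in vehicle and 152, 91.9 and 72.9 in rebamipide. Its log2 fold change of -1.28 ± 0.31 (SE) had an adjusted p of 0.0362 in edgeR's test. Rps4x, an X-linked gene, had 1236, 1153 and 1103 CPM in vehicle and 696, 473 and 374 in rebamipide. Its log2 fold change was -1.18 ± 0.31 (SE; edgeR's adjusted p = 0.0427). In both genes the vehicle libraries lay within a narrow range and the rebamipide libraries spread over a wider one.

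Rps6, the small subunit protein that S6 kinases phosphorylate downstream of mTOR, had 932, 809 and 742 CPM in vehicle and 545, 405 and 338 in rebamipide. The groups lay apart, and the log2 fold change of -0.95 ± 0.27 (SE) missed the threshold (edgeR's adjusted p = 0.0555). Rps27a, which is made as a fusion with ubiquitin, fell, with a log2 fold change of -1.05 ± 0.25 (SE; edgeR's adjusted p = 0.0344), from 522, 482 and 456 CPM to 300, 214 and 193 CPM. Rps15 had the highest mean FPKM of all members, 976, followed by Rplp1 at 842, Rplp0 at 756, Rpl41 at 636 and Rps4x at 574. Rps15 was at 846, 545 and 683 CPM in vehicle and 543, 418 and 390 in rebamipide, where the highest rebamipide library almost reached the lowest vehicle library, with a log2 fold change of -0.62 ± 0.28 (SE; edgeR's adjusted p = 0.147).

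Rps2, a core protein at the mRNA entry channel, had 816, 765 and 1186 CPM in vehicle and 1046, 754 and 771 in rebamipide. Its groups overlapped and its log2 fold change was -0.11 ± 0.30 (SE; edgeR's adjusted p = 0.809), which became 0.13 without the third vehicle library. Rps10 was listed with 191, 66 and 87 counts in vehicle and 47, 48 and 53 in rebamipide, a low level like those of Rpl13a and Rpl24, and its log2 fold change of -0.37 ± 0.49 (SE) had an adjusted p of 0.592 in edgeR's test. Without the first vehicle library it was 0.15. Rps10 overlaps Gm49804 and Rpl13a overlaps Gm45713 on the same strand, both listed at 0 counts, and 15 members overlap a gene of the other strand.

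**Figure D3:**
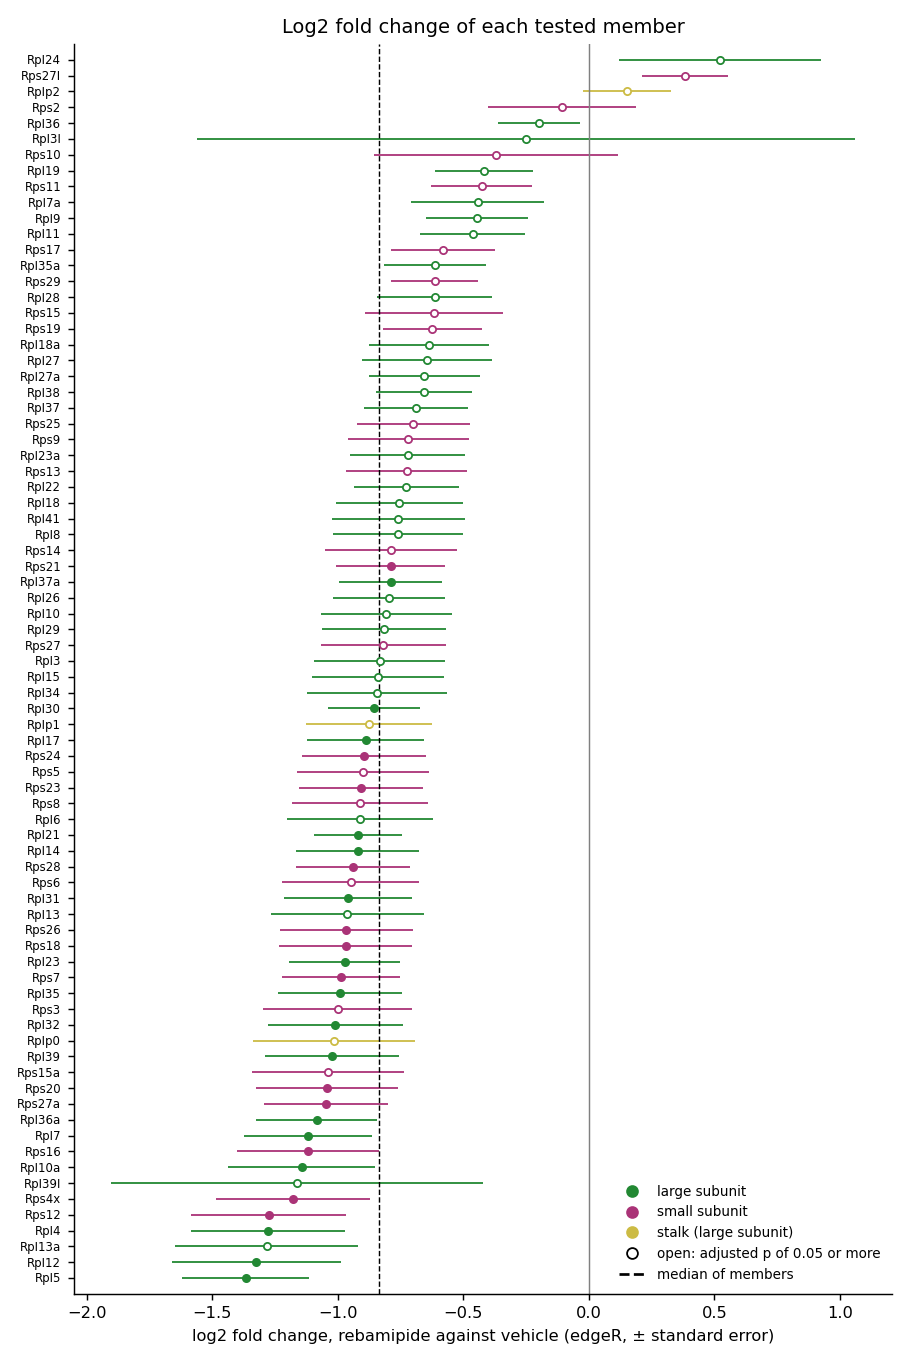
Log2 fold change of each tested member with its standard error (edgeR, TMM), ordered by value and coloured by large subunit, small subunit and stalk; filled points have an adjusted p under 0.05, and the dashed line is the members' median. The 28 filled points all lie below 0, and of the 3 genes above 0, Rplp2, Rps27l and Rpl24, none is filled.

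The called members came from both subunits. Beside Rpl5, the smallest adjusted p-values in edgeR's test, picked out after the values were seen, were those of Rpl21 (0.0198), Rpl30 (0.0270), Rpl36a (0.0290), Rpl23 (0.0310) and Rpl7 (0.0312). Rpl21 stood at 96.5, 94.7 and 93.0 CPM in vehicle and 58.5, 47.5 and 44.3 in rebamipide, a log2 fold change of -0.92 with the small standard error of 0.17. Rpl30, at 240, 236 and 244 CPM in vehicle and 149, 132 and 118 in rebamipide, likewise varied little within its groups. The 28 called members thus include genes whose fold change was near the members' median but whose replicates lay close together.

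The ribosomal stalk is formed by Rplp0, which anchors it, and by dimers of Rplp1 and Rplp2, and it recruits the elongation factors. None of the 3 genes passed with edgeR, whereas Rplp0 and Rplp1 passed with DESeq2 (adjusted p = 0.0120 and 0.00987) and limma-voom (0.0465 and 0.0372). Rplp0 had 1806, 1441 and 1304 CPM in vehicle and 1010, 666 and 573 in rebamipide (log2 fold change -1.02 ± 0.32 SE, edgeR's adjusted p = 0.0694). Rplp1 had 485, 491 and 515 CPM in vehicle and 349, 240 and 222 in rebamipide (log2 fold change -0.88 ± 0.25 SE, edgeR's adjusted p = 0.0542). In both genes every rebamipide library lay below every vehicle library. Rplp2 stood apart from its partner, at 198, 179 and 176 CPM in vehicle and 201, 194 and 219 in rebamipide. Its groups overlapped at a log2 fold change of 0.15 ± 0.18 (SE; edgeR's adjusted p = 0.54), which became -0.47 with total counts alone.

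Because nearly all members moved together, the libraries were also scaled to the summed counts of the members, which asks which members departed from the rest. On this scale 33.5% of all genes tested were called higher and 2.6% lower by edgeR, and among the members 2 were higher and 0 lower. These were Rps27l, with a log2 fold change of 1.25 ± 0.32 (SE; edgeR's adjusted p = 0.0217), and Rplp2, with 1.02 ± 0.29 (SE; edgeR's adjusted p = 0.0332). Rpl24 and Rpl36 came next by adjusted p, at 1.42 and 0.65, and did not pass (adjusted p = 0.0686 and 0.0888, edgeR). Both calls were lost when any library other than the first rebamipide library was left out, where the log2 fold changes ran from 1.08 to 1.35 for Rps27l and from 0.83 to 1.03 for Rplp2, with adjusted p-values of 0.0522 to 0.104 and 0.0784 to 0.145 (edgeR). Without the first rebamipide library 6 of the 78 members were called higher, against 46% of all genes.

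Rps27l is the p53-responsive paralogue of Rps27, and their proteins differ by only a few residues. Rps27 had 212, 246 and 249 CPM in vehicle and 175, 120 and 106 in rebamipide, with a log2 fold change of -0.82 ± 0.25 (SE; edgeR's adjusted p = 0.0628). Rps27l had 87.8, 93.0 and 99.2 CPM in vehicle and 107, 129 and 130 in rebamipide, with a log2 fold change of 0.38 ± 0.17 (SE; edgeR's adjusted p = 0.149). The paralogues thus lay in opposite directions with TMM scaling, though with total counts alone the value of Rps27l was -0.24. Their ratio does not depend on the scaling. Rps27l had 41.3%, 37.8% and 39.8% of the counts of Rps27 in vehicle and 61.0%, 106.9% and 122.4% in rebamipide, a difference of 1.23 in log2 ratio.

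Rplp2 similarly had 40.8%, 36.5% and 34.1% of the counts of Rplp1 in vehicle and 57.5%, 80.8% and 98.6% in rebamipide, a difference of 1.06 in log2 ratio. Both ratios were higher in all 3 rebamipide libraries than in any vehicle library, with an exact permutation p of 0.1 (two-sided). With 3 against 3 libraries p cannot be smaller, and it was 0.2 after Benjamini-Hochberg adjustment over 4 ratios. Without the third rebamipide library the differences in log2 ratio were 1.03 for Rps27l and 0.88 for Rplp2. The ratios of Rps27l, Rplp2 and Rpl39l were chosen after their values were seen.

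Rpl3l replaces Rpl3 in ribosomes of skeletal and heart muscle. Rpl3 itself had 1081, 860 and 712 CPM in vehicle and 563, 469 and 456 in rebamipide (log2 fold change -0.83 ± 0.26 SE, edgeR's adjusted p = 0.068). Rpl3l had 18.4, 74.4 and 96.4 CPM in vehicle and 130, 27.4 and 1.64 in rebamipide. Both its highest and its lowest value came from the rebamipide group, and its log2 fold change of -0.25 ± 1.31 (SE) had an adjusted p of 0.898 in edgeR's test. The 10 fast and shared skeletal muscle markers summed to 6347, 26963 and 32591 CPM in vehicle and 41791, 8781 and 323 in rebamipide, so that the 6 libraries stood in the same order by Rpl3l as by this list. The 6 slow muscle markers other than Atp2a2 had another order, with sums of 7.75, 13.5 and 2.07 CPM in vehicle and 290, 129 and 7.02 in rebamipide. The muscle elongation factor Eef1a2 followed the order of Rpl3l, with 61.4, 305 and 357 CPM in vehicle and 515, 99.4 and 2.44 in rebamipide. Per length, the FPKM of Rpl3l was 3.30%, 16.7% and 26.2% of that of Rpl3 in vehicle and 44.7%, 11.3% and 0.695% in rebamipide. In counts the ratio differed between the groups by -0.68 on the log2 scale (exact permutation p = 0.8, two-sided), and by 0.99 in the other direction without the third rebamipide library.

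Rpl39l was scarce, and Rpl10l was not detected. Rpl39l, best known from male germ cells, had 142, 252 and 326 counts in vehicle and 136, 38 and 18 in rebamipide, which is 1.49% to 2.98% and 0.860% to 3.14% of the counts of Rpl39. Its fold change of -1.16 ± 0.74 (SE) had an adjusted p of 0.278 in edgeR's test, and the libraries overlapped. Rpl39 fell, with a log2 fold change of -1.02 ± 0.27 (SE; edgeR's adjusted p = 0.0442). Rpl10, the partner of the undetected Rpl10l, had 747, 779 and 771 CPM in vehicle and 561, 398 and 353 in rebamipide (log2 fold change -0.81 ± 0.26 SE, edgeR's adjusted p = 0.0723). A mouse Rps4l was not analysed here.

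**Figure D4:**
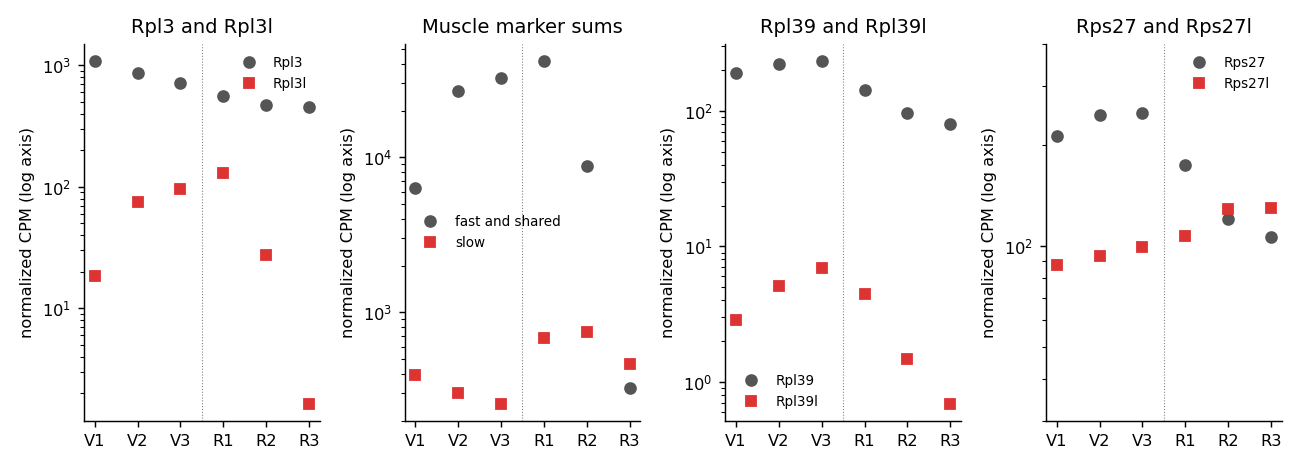
Normalized CPM (log axis) of Rpl3 and Rpl3l, of the summed fast and slow muscle markers (the latter mostly Atp2a2), of Rpl39 and Rpl39l, and of Rps27 and Rps27l in each of the 3 vehicle (V) and 3 rebamipide (R) libraries. Rpl3l ranges from 1.64 to 130 CPM without separating the groups, and Rps27l lies above Rps27 only in the second (129 against 120 CPM) and the third (130 against 106 CPM) rebamipide libraries.

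Ribosomal proteins whose names lie outside the pattern also had mostly negative values. Of 9 such genes 1 was lower and 0 were higher, against 6.51% and 14.1% of all genes tested. Their median value was -0.71 on the log2 scale. With total counts alone and with DESeq2 6 of the 9 were lower, at medians of -1.30 and -0.72, against 25.2% and 16% of all genes. The lower one was Rpl22l1, the paralogue of Rpl22, at 52.5, 53.5 and 51.4 CPM in vehicle and 26.7, 17.6 and 12.5 in rebamipide, with a log2 fold change of -1.47 ± 0.30 (SE; edgeR's adjusted p = 0.0240). Rack1, the scaffold on the head of the small subunit, had a value of -1.08 (adjusted p = 0.0549), Rps3a1 of -0.93 (0.0723), Fau of -0.71 (0.0653) and Rpsa, the laminin receptor, of -0.68 (0.104), all by edgeR. The call of Rpl22l1 was lost without any library other than the first rebamipide library, without which 6 of the 9 were lower, against 12.8% of all genes. Without the third rebamipide library the median was -0.58.

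Translation factors and other mRNAs of the TOP class came next. Of 19 such genes 5 were lower and 0 higher, against 6.51% and 14.1% of all genes tested, at a median value of -0.47 on the log2 scale. Npm1, the nucleolar chaperone of ribosome export, had 305, 220 and 169 CPM in vehicle and 47.2, 60.9 and 52.9 in rebamipide, with a log2 fold change of -2.11 ± 0.28 (SE; edgeR's adjusted p = 0.00993). The others were Nap1l1 (-1.36), Hnrnpa1 (-1.50), the elongation factor subunit Eef1b2 (-0.95) and the initiation factor subunit Eif3e (-0.68). Eef1a1, the main elongation factor and the most abundant of them by CPM, had 7891, 5993 and 5025 CPM in vehicle and 4559, 4748 and 4380 in rebamipide. Its groups did not overlap but the log2 fold change of -0.47 did not pass (adjusted p = 0.339, edgeR), and neither did that of Tpt1 (-0.60, adjusted p = 0.138). Scaled by total counts alone, 12 were lower at a median of -1.09, against 25.2% of all genes. With a library left out edgeR called 2, 0 and 3 of the 19 lower without the vehicle libraries in turn, against 2.52%, 0% and 5.51% of all genes. Without the rebamipide libraries in turn it called 7, 0 and 1, against 12.8%, 0% and 2.49%.

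Of 30 ribosome biogenesis genes 2 were lower and 1 was higher, with a median of -0.46. The share of lower genes is near the 6.51% of all genes tested, and that of higher genes is below the 14.1%. Ncl, the nucleolar protein nucleolin, had 349, 221 and 171 CPM in vehicle and 57.7, 69.1 and 52.2 in rebamipide (log2 fold change -2.05 ± 0.32 SE, edgeR's adjusted p = 0.0125), and Nop58, a core protein of box C/D snoRNPs, fell by 2.14 on the log2 scale (adjusted p = 0.0155, edgeR). Nop10, of the box H/ACA snoRNPs that guide pseudouridylation, rose from 51.9, 42.2 and 42.4 CPM to 91.9, 148 and 169 CPM (log2 fold change 1.58 ± 0.27 SE, edgeR's adjusted p = 0.0154). Its partner Nhp2 had a value of -0.62 (adjusted p = 0.125, edgeR). Genes of the same particle thus lay on opposite sides of 0, and the difference between them was not tested. Scaled by total counts alone, 15 were lower and 1 higher at a median of -1.07, against 25.2% and 8.45% of all genes, and DESeq2 called 5 lower and 1 higher, against 16% and 16.6%. The median was -0.13 without the first vehicle library. Without the second vehicle library or the second rebamipide library, where edgeR called 0 and 1 genes in the whole table, 0 of the 30 passed.

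Among 22 genes that control ribosomal protein synthesis, 5 were higher and 1 was lower, with a median of 0.06, against 14.1% higher and 6.51% lower over all genes tested. With total counts alone 3 were higher and 7 lower at a median of -0.60, against 8.45% and 25.2% of all genes. Mtor rose from 69.5, 49.2 and 43.1 CPM to 150, 262 and 227 CPM (log2 fold change 1.98 ± 0.31 SE, edgeR's adjusted p = 0.0125). Its partner Rptor rose by 0.96, the translational repressors Eif4ebp1 and Eif4ebp2 by 1.89 and 0.96, and Tsc2, which restrains mTOR complex 1, by 1.21. Myc, a transcription factor that drives ribosome production, fell by 1.52 on the log2 scale (standard error 0.36, adjusted p = 0.0348, edgeR). The mRNA level says nothing of kinase activity, and Larp1, which binds TOP mRNAs, had a log2 fold change of -0.11 (adjusted p = 0.763, edgeR). With edgeR, 0 of the 22 passed without the second vehicle library or the second rebamipide library, where 0 and 1 genes of the whole table passed, and 3 were higher without the third rebamipide library, against 6.6% of all genes. The call of Myc held only when the first rebamipide library was the one left out.

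The mitochondrial ribosome moved the other way. Of 78 mitochondrial ribosomal protein genes 77 were tested, and 63 were higher and 0 lower, against 14.1% and 6.51% of all genes, with a median log2 fold change of 1.23. In 74 of them every rebamipide library lay above every vehicle library, against 24.5% of all genes. With total counts alone the median was 0.60, with 39 higher and 1 lower, against 8.45% and 25.2% of all genes. Without the second vehicle library or the second rebamipide library, where edgeR called 0 and 1 genes in the whole table, 0 passed, at medians of 1.13 and 1.16, and without the third rebamipide library 37 were higher, at 1.20, against 6.6% of all genes. The summed counts of the cytosolic set were 19.6, 18.8 and 16.8 times those of the mitochondrial set in the vehicle libraries and 6.43, 3.49 and 3.04 times in the rebamipide libraries. This ratio is free of the scaling, and its group means were 18.4 ± 1.46 and 4.32 ± 1.84 (SD, n = 3 each), the latter 4.96 without the third rebamipide library. The proteasome, another large complex of the cytoplasm, did neither. Of 38 tested subunits 0 were called by edgeR, with 7 at an unadjusted p under 0.05 against 39.7% of all genes and 3 called higher by DESeq2 against 16.6%, and the median log2 fold change was 0.10. With total counts alone this median was -0.51 and 8 subunits were lower, against 25.2% of all genes. Without the first rebamipide library edgeR called 7 of them higher, near the 18.3% of all genes in that fit, and without the first vehicle library 1, against 10% of all genes. Without the third rebamipide library it called 0, at a median of 0.14.

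**Figure D5:**
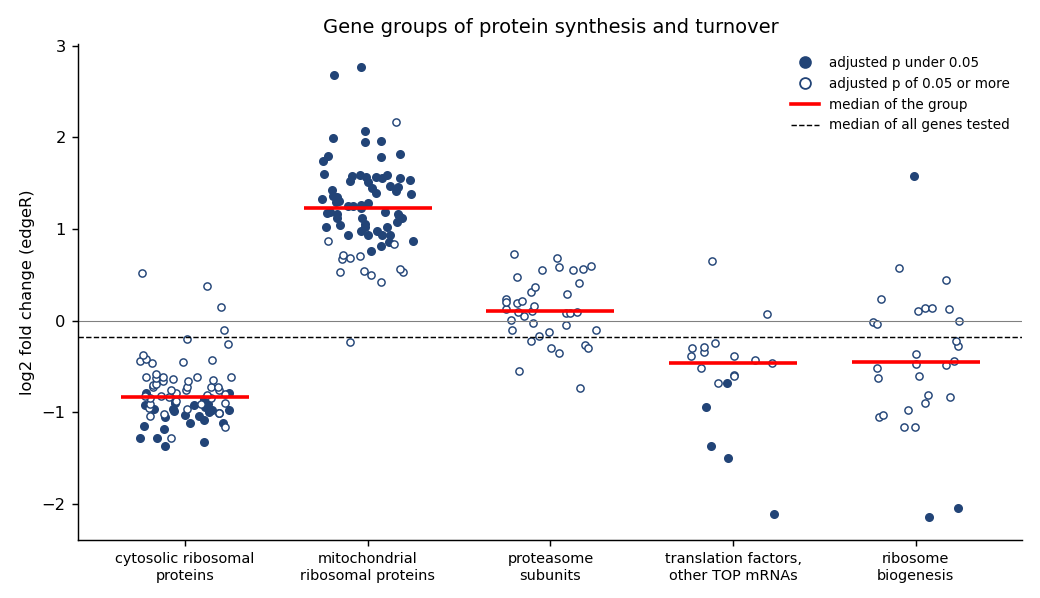
Log2 fold changes (edgeR, TMM) of the genes of each group of protein synthesis and turnover; points are genes, filled at an adjusted p under 0.05, with the group's median in red and the median of all genes tested as a dashed line. Cytosolic ribosomal proteins lie around -0.84, mitochondrial ones around 1.23 and proteasome subunits around 0.10.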

How the data were processed

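Reads of 6 poly-A RNA libraries, 1 per mouse, were processed by the authors. The submitters' processing notes name fastp 0.22.0, HISAT2 2.1.0, HTSeq 0.9.1 and GRCm39, without role or order. The authors deposited raw read counts per gene and FPKM values in 1 table. The FPKM are those same counts scaled for transcript length and library total. How reads matching several genes were counted is not given in the sources used here.

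The main test, on counts, was edgeR 4.0.16 in R 4.3.3 (TMM normalization, filterByExpr, quasi-likelihood F-test, Benjamini-Hochberg adjustment over 14875 genes). The study's tool, DESeq2 (1.42.0), limma-voom (3.58.1), other scalings and filters, limma on log2(FPKM + 1), a replicate block and leaving out each library were alternatives, and the edgeR, DESeq2 and limma fits were tested on simulated data. The fits scaled to member counts that leave out a library, and 3 of the 4 paralogue ratios, were added after the values were seen. CPM are TMM-normalized. Log2 count ratios of gene pairs were compared by exact permutation test. Pairs of libraries within a group differed beyond sampling noise, at 79.1 to 714 chi-square units for each degree of freedom.

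The genes named are the paralogue pairs, the 5 members with the highest mean FPKM, the 5 highest and 5 lowest fold changes outside the pairs, the stalk genes, Rps6 and Rps27a, and of each pathway list the 3 genes with the smallest p and the 2 with the highest FPKM, with Eef1a1 and Eef1a2. Rpl21, Rpl30, Rpl36a, Rpl23, Rpl7, Hnrnpa1, Eif3e, Rptor, Myc and Larp1 were named after the values were seen. Fau was named outside these rules. The members and all gene lists were chosen with earlier results of these data known. One gene of a pathway list is not reported here.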

Additional observations from a re-analysis of the deposited data

How the results depend on the processing

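Against 28 members lower with edgeR and TMM, where 6.51% of all genes were lower, the count was 62 with DESeq2 (16% of all genes), 43 with limma-voom (6.94%), 71 with total counts alone (25.2%) and with limma on log2(FPKM + 1) (32.3%), 0 with the members as library size (2.6%), 11 without a filter (4.5%), 55 with at least 10 counts in every library (11.9%) and 17 at an unadjusted p under 0.05 with a log2 fold change below -1 (14.5%). It ranged from 0 to 70 when 1 library was left out with edgeR, DESeq2 or limma-voom (0% to 25.9% of all genes). The members higher ranged from 0 to 1 in these fits (0% to 22.1% of all genes), with 2 on the scale of the members (33.5% of all genes). Equal replicate numbers did not pair the libraries (correlations of -0.02, -0.04 and 0.00), and with the replicate block 17 members were lower (5.75% of all genes). The median log2 fold change of -0.84 was -1.42 with total counts, -0.0189 on the scale of the members and -1.46 with log2(FPKM + 1). The log2 fold change of Rpl3l was 0.30 on the scale of the members and ranged from -2.93 to 0.35 over left-out libraries, and the log2 ratio of Rpl3l to Rpl3 from -2.01 to 0.99. On the scale of the members, which rescales each library as a whole and puts 0 at their sum, the sign changed for 35 of the 78 members, among the named ones also for Rpl3 (0.0167), Rpl10 (0.000603), Rpl41 (0.0535), Rps15 (0.22), Rps10 (0.55), Rpl36 (0.65) and Rps2 (0.71). Over left-out libraries Rps10 ran from -0.67 to 0.17 and Rps2 from -0.27 to 0.13. With total counts Rplp2, Rps27l and Rpl24 were at -0.47, -0.24 and -0.12, and with log2(FPKM + 1) at -0.46, -0.24 and -0.0513. The cause of these shifts was not tested.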
